A study of Saccharomyces cerevisiae with 328 samples.

Results

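Transcript levels of 52 genes that carry out translation in the cytosol of budding yeast were followed across 328 single deletion strains of Saccharomyces cerevisiae. The genes were listed by name as translation factors and aminoacyl-tRNA synthetases: 23 act in initiation, 9 in elongation and 2 in termination, and 18 encode tRNA synthetases. No measured value enters that rule, but the list was chosen with earlier results of these data known. All 52 had a value in at least 80% of the strains, the limit set for the 4499 genes tested, and 48 had one in every strain. None of them was deleted in any strain. The members lie on 15 of the nuclear chromosomes.

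PolyA RNA of cells in exponential growth in liquid medium was sequenced with 50 cycles, 1 library per strain. Each deposited value is a log ratio of a deletion strain to the wild type. The base of the logarithm is not given in the sources used here and was taken as 2. Read counts behind the ratios are not given either, so the depth of each value is unknown. The ratios say nothing of how abundant a transcript is, and an error of the wild-type measurement would enter every strain. Parent strain, mating type and medium are not named in the labels. The strains were grouped by the function of the deleted gene: 18 were deleted for a gene of the small ribosomal subunit, 14 for a gene of the large subunit, 7 for a ribosome biogenesis factor, 6 for an Elongator or URM1 pathway gene, 6 for a Mediator subunit, 5 for an RNA polymerase II elongation factor, 18 for a chromatin factor, 10 for a gene of mitochondrial function, 8 for a recombination repair gene and 13 for a vacuolar sorting gene, and all remaining strains, here the other deletions, served as their reference. Of the strains, 11 stood apart, with over 40% of all genes past 0.5 from the median of their library set, a grouping described later: the deletions of SEC66, RPL8A, GSH1, ASF1, RFU1, CSF1, SWI6, YLR338W, AIM34, MVP1 and ASC1. In 17 strains the genes of 1 whole chromosome were shifted. The counts of members called in the class comparisons were the same without either group of strains. With 1 library per strain, a class is a set of different mutants, not of repeats of 1 genotype.

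Initiation factors bring the initiator tRNA, the ribosome and the capped message together at the start codon. Elongation factors deliver each charged tRNA and move the ribosome along, release factors free the finished chain, and each synthetase loads its tRNA with the matching amino acid. In budding yeast most of these genes are essential, several are present as near-identical pairs, and they are transcribed in step with ribosome production in growing cells. The RRPE and PAC elements are short promoter sequences known from yeast genes of ribosome assembly. Rap1 binds ribosomal protein gene promoters, and Gcn4 activates amino acid synthesis genes under starvation.

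The DNA upstream of the members held 1 of these elements far more often than that of other genes. The letters of the RRPE core, AAAATTTT, occurred in the 300-base window that ends 100 bases before the start codon in 29 of 52 members (55.8%), against 544 of 6001 annotated genes (9.07%). The elongation factors carried it in 7 of 9 windows, the initiation factors in 13 of 23, both termination factors carried it, and the synthetases in 7 of 18. The same letters rearranged as TTTTAAAA were in 1 member window of 52 (1.92%) and in 3.47% of all windows, and the median AT content was 63.7% for the members and 63.3% for all genes. The PAC letters GATGAG were in 15 of 52 member windows (28.8%) and in 18.4% of all. The Gcn4 letters TGANTCA were in 3 member windows (5.77%), those of the synthetase genes DED81, FRS2 and GRS1, and in 7.30% of all, and the Rap1 motif was in 2 member windows (3.85%), those of TEF4 and KRS1, and in 1.68% of all. Both strands were searched, and in 1 member window, that of YEF3, 2 PAC matches overlapped. A match is a description of the letters, not evidence of a bound factor.

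**Figure D1:**
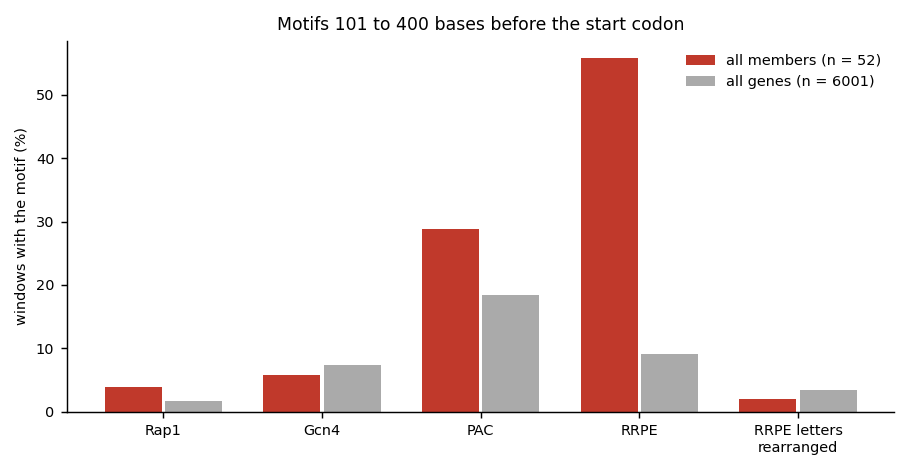
Percent of 300-base windows, each ending 100 bases before the start codon, that hold each motif on either strand, for the 52 members (red, left bar of each pair) and all 6001 annotated genes (grey). RRPE stands at 55.8% of the members and 9.07% of all genes, and the other 4 bars of the members lie between 1.92% and 28.8%.

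Windows of 6 members are printed to show that genes with the same RRPE letters stood at opposite ends of the main pattern of variation within library sets, described later; the 6 were picked among members with these letters. EFT2 (translation elongation factor 2), HYP2 (eIF5A) and PAB1 (the poly(A)-binding protein) stood at one end. EFB1 (the exchange factor of elongation factor 1), THS1 (threonyl-tRNA synthetase) and SUP45 (release factor eRF1) stood at the other. The sequences are RefSeq R64, written 5′ to 3′ along the coding strand, and capitals mark AAAATTTT and, in SUP45, GATGAG read on the opposite strand. Their places are chrIV:1242830-1243129 on the plus strand for EFT2, chrV:85276-85575 on the plus strand for HYP2, chrV:509973-510272 on the plus strand for PAB1, chrI:141774-142073 on the plus strand for EFB1, chrIX:212099-212398 on the plus strand for THS1 and chrII:532283-532582 on the minus strand for SUP45.
EFT2: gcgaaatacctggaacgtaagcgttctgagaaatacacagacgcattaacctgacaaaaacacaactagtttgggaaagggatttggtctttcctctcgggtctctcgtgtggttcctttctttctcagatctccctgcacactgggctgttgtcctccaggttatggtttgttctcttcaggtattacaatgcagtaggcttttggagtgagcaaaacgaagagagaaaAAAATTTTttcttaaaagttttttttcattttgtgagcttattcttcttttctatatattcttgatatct
HYP2: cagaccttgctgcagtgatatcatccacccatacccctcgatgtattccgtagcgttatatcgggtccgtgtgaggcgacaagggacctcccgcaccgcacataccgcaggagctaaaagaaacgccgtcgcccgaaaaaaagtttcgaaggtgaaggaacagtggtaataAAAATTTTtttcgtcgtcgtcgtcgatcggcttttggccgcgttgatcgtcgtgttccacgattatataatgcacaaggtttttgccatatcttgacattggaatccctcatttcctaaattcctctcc
PAB1: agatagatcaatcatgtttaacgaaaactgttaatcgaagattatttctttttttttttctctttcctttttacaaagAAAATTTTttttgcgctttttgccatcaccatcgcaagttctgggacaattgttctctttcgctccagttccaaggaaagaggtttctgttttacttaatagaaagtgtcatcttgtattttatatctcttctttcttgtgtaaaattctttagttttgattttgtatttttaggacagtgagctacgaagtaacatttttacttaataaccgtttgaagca
EFB1: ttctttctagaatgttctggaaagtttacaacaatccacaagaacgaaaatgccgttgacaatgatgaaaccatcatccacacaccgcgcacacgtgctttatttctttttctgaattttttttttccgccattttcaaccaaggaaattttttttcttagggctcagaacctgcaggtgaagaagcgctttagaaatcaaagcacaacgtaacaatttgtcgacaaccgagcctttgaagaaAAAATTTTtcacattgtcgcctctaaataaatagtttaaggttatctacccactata
THS1: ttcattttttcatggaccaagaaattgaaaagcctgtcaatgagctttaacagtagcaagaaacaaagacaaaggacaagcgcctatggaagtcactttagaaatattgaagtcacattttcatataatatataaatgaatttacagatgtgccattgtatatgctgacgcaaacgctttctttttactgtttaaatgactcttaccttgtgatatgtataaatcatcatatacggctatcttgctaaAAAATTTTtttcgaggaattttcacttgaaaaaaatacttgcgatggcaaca
SUP45: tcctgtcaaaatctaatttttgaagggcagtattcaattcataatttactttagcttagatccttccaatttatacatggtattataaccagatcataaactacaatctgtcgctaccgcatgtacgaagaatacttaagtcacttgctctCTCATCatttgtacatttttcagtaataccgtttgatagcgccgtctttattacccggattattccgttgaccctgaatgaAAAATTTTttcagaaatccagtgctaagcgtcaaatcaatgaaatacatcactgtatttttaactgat

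The members varied less between strains than most genes did. The standard deviation of a member over the strains had a median of 0.33 on the log2 scale, against 0.47 for all genes tested, and 45 of the 52 members lay below that all-gene median. The genes compared were not matched for abundance or depth, which are unknown. A value in every strain was present for 48 of the 52 members and for 2142 of the 4499 genes. Whether this lay behind the smaller spread was not tested. Most members also read low against the wild type: 42 had a negative median over the strains and 10 a positive one, and 61.9% of all genes had a negative median. By role, 20 of 23 initiation factors, 5 of 9 elongation factors, 1 of 2 termination factors and 16 of 18 synthetases had a negative median. Because all strains share the wild-type measurement, a shift present in every strain cannot be told apart from an error in it.

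**Figure D2:**
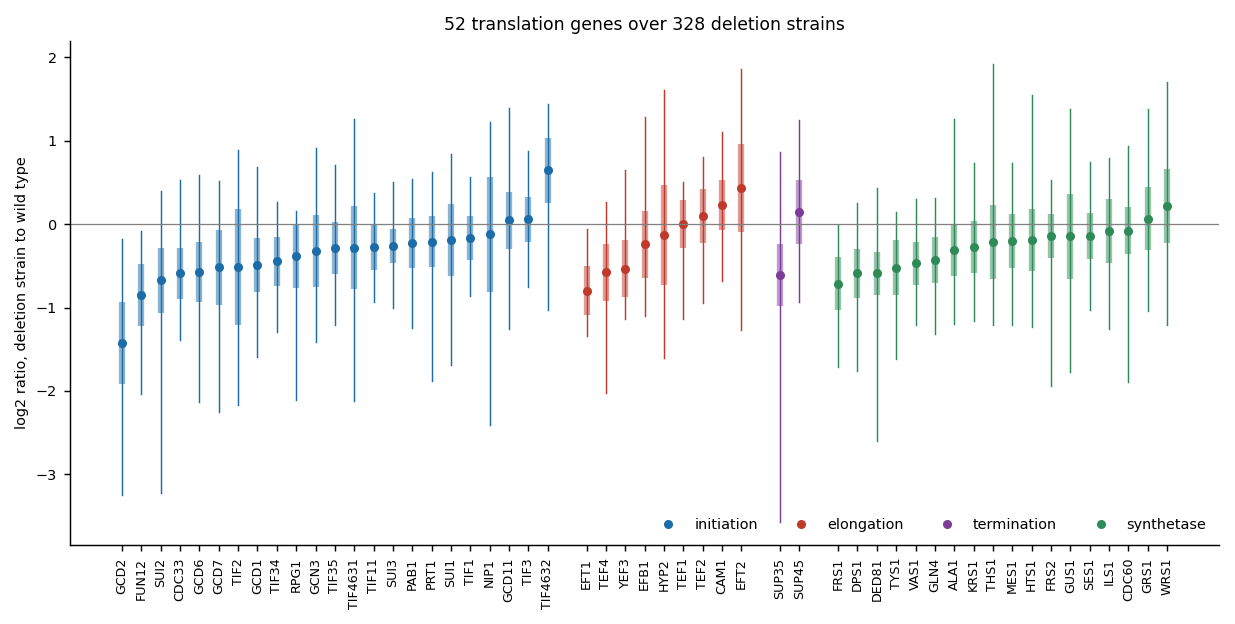
Log2 ratio to wild type of each of the 52 members over the deletion strains, grouped by role and ordered by median; points are medians, thick bars the median plus and minus 1 SD over strains, thin lines the lowest to highest strain. GCD2 has the lowest median, -1.42, and TIF4632 the highest, 0.64.

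Among the initiation factors, GCD2, a subunit of the guanine nucleotide exchange factor eIF2B, had the lowest median of any member, with a lowest value of -3.24, a median of -1.42 and a highest value of -0.17 over 325 strains. FUN12 (eIF5B, which joins the ribosomal subunits) ranged from -2.04 through a median of -0.85 to -0.079. Both genes were below the wild type in every strain with a value. TIF4632, 1 of the 2 genes for the scaffold eIF4G, had the highest median, 0.64, with a lowest value of -1.03 and a highest of 1.43. The widest spread of any member belonged to TIF2, 1 of the 2 genes for the helicase eIF4A, with an SD of 0.70 between -2.16 and 0.89, and NIP1, an eIF3 subunit, came next with an SD of 0.68 between -2.40 and 1.22. The narrowest belonged to SUI3, the beta subunit of eIF2, with an SD of 0.21 around a median of -0.26. TIF1, the other eIF4A gene, had an SD of 0.26 between -0.87 and 0.57, so the 2 genes for the same protein were near opposite ends of the order of spread.

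The elongation factors held 2 of the 4 most variable members. HYP2 had an SD of 0.60, a lowest value of -1.61, a median of -0.13 and a highest value of 1.60. EFT2 had an SD of 0.53, a lowest value of -1.27, a median of 0.43 and a highest value of 1.86. EFT1, the other gene for elongation factor 2, was below the wild type in every strain, from -1.34 through a median of -0.80 to -0.055. TEF1 and TEF2, the genes for elongation factor 1 alpha, had medians of 0.0040 and 0.099 with SDs of 0.29 and 0.33. TEF4 and CAM1, which encode forms of the gamma subunit of its exchange factor, had medians of -0.57 and 0.23.

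The termination factors differed in level. SUP35 (eRF3, the protein that forms the yeast prion PSI) had a median of -0.61 between -3.57 and 0.86, and SUP45 a median of 0.15 between -0.93 and 1.25, with SDs of 0.37 and 0.39. The synthetases ranged in median from -0.72 for FRS1, the beta subunit of the phenylalanyl enzyme, to 0.21 for WRS1, the tryptophanyl enzyme. VAS1 (valyl) and DED81 (asparaginyl), with SDs of 0.25 and 0.26, and FRS2 (the alpha subunit of the phenylalanyl enzyme), with 0.26, were among the steadiest members. GUS1, the glutamyl enzyme, was the most variable synthetase, with an SD of 0.51 between -1.77 and 1.38.

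Much of this variation separated 4 sets of libraries that the labels do not explain. A Gaussian mixture on principal components of 4308 genes, with the members and the ribosomal protein genes left out, put 78, 74, 80 and 96 strains in sets 1 to 4. The number of sets was fixed at 4. The Bayesian information criterion, where lower is better, was 7989.5 with 4 sets, 7924.2 with 5 and 7874.1 with 6, so it favoured more sets. The labels name no plate, run or date, so what the sets are is unknown. The sets held 54.02% of the variance of the members and 30.9% of that of all genes tested, and 26 of 52 members had over 50% of their variance between sets, against 13.03% of all genes. Because the sets were drawn from the data, no test was made between them. The range over the 4 set means had a median of 0.58 for the members and 0.57 for all genes, nearly the same. Within the sets, the median SD of the members was 0.24 and that of all genes 0.40. The larger share of the members thus went with a smaller spread within sets, not with wider gaps between them.

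Set 4 stood apart for the synthetases. The mean of the 18 synthetase genes was -0.56 ± 0.075 in set 4, against -0.20 ± 0.10, -0.15 ± 0.080 and -0.16 ± 0.090 in sets 1, 2 and 3 (SD over 96, 78, 74 and 80 strains). In 15 of 18 synthetases the lowest set mean was that of set 4, and 47.9% of all genes also had theirs there. GUS1 averaged -0.94 in set 4 and between -0.087 and 0.088 in the other sets, and WRS1 averaged -0.46 in set 4 and between 0.24 and 0.38 in the others. The mean of the 9 elongation factors was higher in set 4, 0.025 ± 0.077, than in sets 1 to 3, where it lay between -0.22 and -0.15, but 4 of them had their highest set mean in set 4 and 3 their lowest. EFT2 averaged 1.18 in set 4 and 0.12 to 0.48 elsewhere, and HYP2 0.83 in set 4 and -0.46 to -0.11 elsewhere. YEF3, the fungal elongation factor 3, averaged 0.032 in set 4 and -0.67 to -0.54 elsewhere. The 3 lowest in set 4 were EFB1, EFT1 and TEF4, with means of -0.60, -1.04 and -0.79 there. TIF2 averaged -1.49 in set 1 and 0.26 in set 4, and its share of variance between sets, 88.4%, was the largest of any member.

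A single axis held 33.9% of the variance of the 52 members over the strains. At its upper end were 8 members with a correlation of at least 0.5 with the axis: HYP2 (0.90), YEF3 (0.86), EFT2 (0.86), NIP1 (0.80), TIF2 (0.78), TEF2 (0.74), TIF1 (0.71) and GCD11, the gamma subunit of eIF2 (0.56). At its lower end were 21 members at -0.5 or below, led by GUS1 (-0.93), ILS1, the isoleucyl enzyme (-0.86), WRS1 (-0.85), GRS1, the glycyl enzyme (-0.81), and EFB1 (-0.79). The axis correlated at -0.73 with the median of each strain over all genes and at -0.082 with the mean of the ribosomal protein genes over the 328 strains, which share 1 wild type and the library sets. After each set's mean was taken off, a first axis held 20.4% of the variance and its correlation with the strain median was -0.25. Its upper end then held HYP2 (0.85), PAB1 (0.84), EFT2 (0.80), DPS1, the aspartyl enzyme (0.74), TEF2 (0.73) and TEF1 (0.73), and its lower end THS1 (-0.76), GUS1 (-0.72), EFB1 (-0.71) and SUP45 (-0.70). The sign of 34 of 52 members was the same on both axes.

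Pairs of members were more strongly related, in either direction, than pairs of genes in general. Of the 1326 member pairs, 19.4% had a correlation of at least 0.5 in size over the strains, against 5.69% of all pairs of the genes with a value in every strain. Within the sets these shares were 3.62% and 0.451%. Of the 257 strongly related member pairs, 31 changed sign within the sets. EFT2 and GUS1 were the most opposed of all pairs, with a correlation of -0.87 over 328 strains, -0.64 within sets, and -0.31, -0.79, -0.31 and -0.85 inside sets 1 to 4. Splitting the strains into 5 sets divided set 4 into 70 and 26 strains, in which EFT2 averaged 1.05 and 1.55 and GUS1 -0.72 and -1.52, and left a correlation of -0.52 within sets. HYP2 and PAB1 correlated at 0.36 over all strains and at 0.75 within the 4 sets. EFB1 and THS1 correlated at 0.79 over all strains and 0.69 within sets. These correlations are descriptions over strains that share a wild type, and carry no test.

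**Figure D3:**
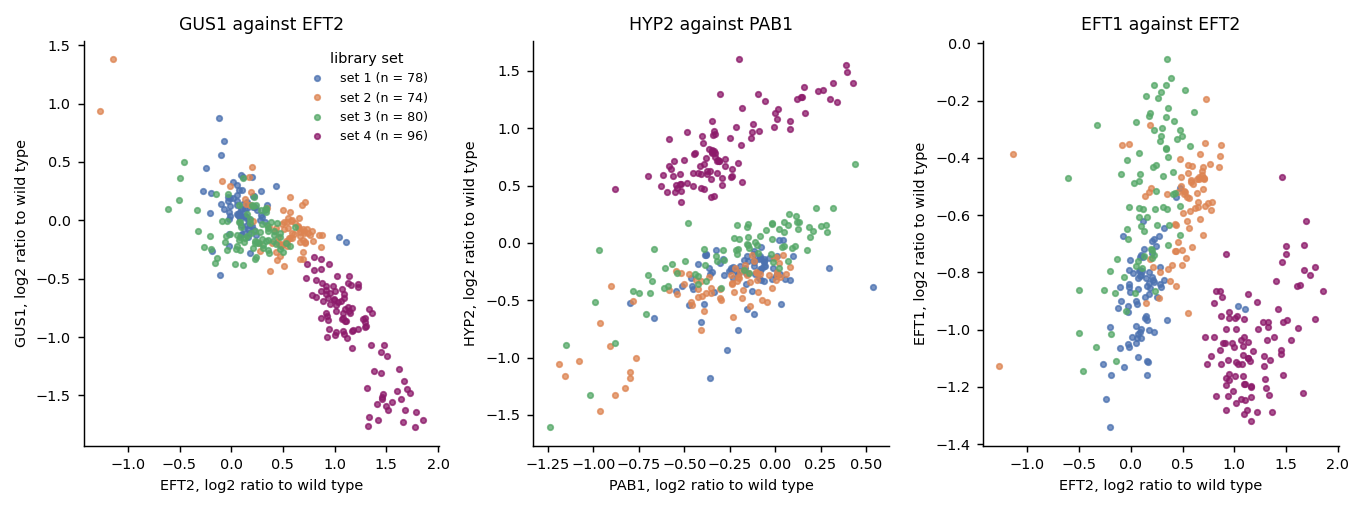
Log2 ratios to wild type of 3 pairs of members in 328 deletion strains, 1 point per strain, coloured by library set. GUS1 is low where EFT2 is high (correlation -0.87), HYP2 and PAB1 run along separate lines for set 4 and the other sets (0.36 over all strains and 0.75 within sets), and EFT1 and EFT2 are opposed over all strains (-0.28) but not within sets (0.42).

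Members of 1 complex or role did not all move as a block, though synthetases, and elongation factors within sets, were more alike than genes in general. The median correlation between 2 initiation factors was 0.021 over the strains and 0.040 within sets, close to the 0.060 and 0.025 of all gene pairs. Between 2 elongation factors it was -0.0070 over the strains and 0.22 within sets, and between 2 synthetases 0.28 and 0.10. The alpha and gamma subunits of eIF2, SUI2 and GCD11, correlated at -0.36 over the strains and 0.014 within sets, and the beta and gamma subunits, SUI3 and GCD11, at 0.34 and 0.21. SUP35 and SUP45, which form the release complex, correlated at 0.24 and 0.047. FRS1 and FRS2, both subunits of the phenylalanyl enzyme, correlated at 0.45 and 0.16.

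For the pairs of duplicated genes, the nearly identical coding sequences limit what the values can say. TEF1 and TEF2 differ at 2 of 1377 coding bases (99.9% identity), EFT1 and EFT2 at 4 of 2529 (99.8%) and TIF1 and TIF2 at 6 of 1188 (99.5%) in RefSeq R64. A read of 50 bases that starts at any point of the coding sequence would match both copies in 92.5%, 91.9% and 84.9% of places. How the authors assigned such reads is not given in the sources used here, so the split of reads between the copies is uncertain. The stretches around the first difference of TEF1 (chromosome XVI) and TEF2 (chromosome II), T762C, and of EFT1 (chromosome XV) and EFT2 (chromosome IV), A447G, are printed to show how little tells the copies apart, with the differing base in capitals and positions counted from 1 at the first base of the coding sequence.
TEF1: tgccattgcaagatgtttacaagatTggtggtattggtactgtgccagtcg
TEF2: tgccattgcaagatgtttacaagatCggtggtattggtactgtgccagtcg
EFT1: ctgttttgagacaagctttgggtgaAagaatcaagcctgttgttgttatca
EFT2: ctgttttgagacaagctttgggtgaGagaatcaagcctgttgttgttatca

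The values of the copies nonetheless differed. EFT1 minus EFT2 had a median of -1.08 over 328 strains, between -2.89 and 0.75, and EFT2 had the higher ratio in 324 strains. The difference averaged -2.22 in set 4 and between -1.05 and -0.69 in the other sets. Their correlation was -0.28 over all strains, 0.42 within the 4 sets and 0.35 within 5 sets, where it ran from -0.27 to 0.59 in single sets. TIF1 minus TIF2 had a median of 0.30 and averaged 1.25 in set 1 and -0.078 in set 4, and the correlation of the copies was 0.66 over all strains and 0.14 within sets. TEF1 minus TEF2 had a median of -0.11, the nearest to 0 of the 5 pairs, and the copies correlated at 0.63 over all strains and at 0.80 within sets, where no other pair was as high. The other pairs share no stretch of 50 bases: TIF4631 and TIF4632 (69.1% identity) correlated at 0.17 and 0.20, and TEF4 and CAM1 (74.4%) at 0.24 and 0.26, over all strains and within sets.

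In 16 strains the genes of 1 whole chromosome were raised together, by a median of 0.51 to 0.92 with the members left out, and members on that chromosome were raised with it. DNA was not measured. In 14 of these strains the raised chromosome carried members, 15 in all on 6 chromosomes, which gave 32 values. Of these, 30 were above the median of their library set and 27 (84.4%) were at least 0.5 above it, with a median of 0.74. The other genes of the same chromosomes had a median of 0.76, and 77.7% of their 3999 values were at least 0.5 above the set. Members on the other chromosomes of these strains had a median of -0.031, and 9 of 800 values (1.13%) passed 0.5, and over all genes and chromosomes of the 16 strains 12.9% did.

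**Figure D4:**
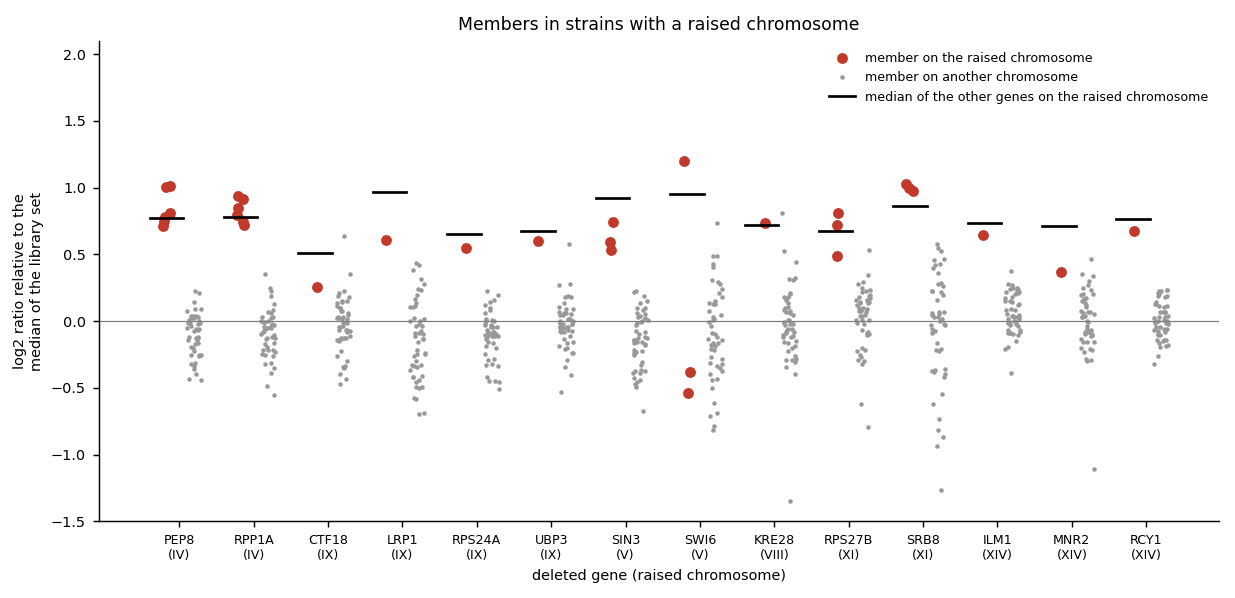
Log2 ratio relative to the median of the library set in 14 strains with a raised chromosome that carries members; red points are members on that chromosome, grey points members on other chromosomes, black lines the median of the other genes on the raised chromosome. Of the 32 red points 30 lie above 0; HYP2 and PAB1 in the SWI6 deletion, at -0.38 and -0.54, do not.

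The deletions of RPP1A and PEP8 both had chromosome IV raised, which carries EFT2, TIF35 (an eIF3 subunit), GCD6 (an eIF2B subunit), SUP35, KRS1 (lysyl) and SES1 (seryl). All 6 members were between 0.72 and 0.94 above their set in the RPP1A deletion and between 0.71 and 1.01 in the PEP8 deletion. The deletions of RPS27B and SRB8 had chromosome XI raised, with TEF4 at 0.49 and 1.00, TIF1 at 0.72 and 0.97 and GCN3, the alpha subunit of eIF2B, at 0.81 and 1.03. THS1 on chromosome IX was 0.25, 0.60, 0.55 and 0.61 above its set in the deletions of CTF18, UBP3, RPS24A and LRP1. SUI1 (eIF1) on chromosome XIV was 0.36, 0.65 and 0.67 above it in the deletions of MNR2, ILM1 and RCY1, and DED81 on chromosome VIII 0.74 above it in the KRE28 deletion. Chromosome V was raised in the deletions of SIN3 and SWI6. In the SIN3 deletion HYP2, PAB1 and GCD11 were 0.74, 0.59 and 0.53 above their set. In the SWI6 deletion GCD11 was 1.20 above it, while HYP2 was at -0.38 and PAB1 at -0.54, although the 10 genes flanking each had medians of 1.10 and 0.98. Of the other members named at the upper end of the axis within sets, TEF1 was at -0.61, TEF2 at -0.79, EFT2 at -0.71 and DPS1 at -0.32 in this strain. HYP2, EFT2, TEF2 and GCD11 also belong to the upper end of the axis over all strains. Of the remaining members at that end, NIP1 was at 0.49, YEF3 at 0.0095, TIF2 at -0.0094 and TIF1 at -0.22. In the PIH1 deletion chromosome I was low, and its members EFB1 and FUN12 were at -0.43 and -0.40.

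Deletions of small ribosomal subunit proteins were the class with members past the threshold, and also the class with the most genes called of any kind, 88 of 4499. Each strain of this class lacks 1 gene for a protein of the 40S subunit, in most cases 1 of a pair of copies. Of the 52 members, 2 were called by limma at an adjusted p below 0.05 while 1.96% of the 4499 genes were called, 0.422% as higher and 1.53% as lower. An unadjusted p below 0.05 was found for 17 of 52 members, a larger share than the 18.7% of all genes. This difference in shares was not tested. YEF3 was higher: its values ran from -0.74 through a median of -0.21 to 0.65 in the 18 small subunit deletions, against -1.02, -0.54 and 0.48 in the other deletions. The groups overlap widely, and 14 of 18 class strains lay above the median of the other deletions. The fitted difference was 0.28 with a standard error of 0.082 (limma, adjusted p = 0.0466). TYS1, the tyrosyl enzyme, was lower: it ran from -1.61 through -0.71 to -0.21 in the small subunit deletions and from -1.34 through -0.50 to 0.10 in the other deletions. Of the class strains 12 of 18 lay below the other deletions' median, and the difference was -0.27 with a standard error of 0.0795 (limma, adjusted p = 0.0486).

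Both calls depended on whether a term for the library set was fitted. Set 4 held 9 of 18 small subunit deletions (50.0%) and 56 of the other deletions (25.1%). In that set YEF3 was high and TYS1 low in the other deletions as well. What lay behind the calls was not tested. With a term for the set the differences were 0.12 (adjusted p = 0.0851) for YEF3 and -0.15 (adjusted p = 0.111) for TYS1, and neither was called, while 3.22% of all genes were, 0.911% as higher and 2.31% as lower. Inside set 4 YEF3 averaged 0.19 ± 0.23 in 9 small subunit deletions and 0.025 ± 0.18 in 56 other deletions. Inside sets 1, 2 and 3 it averaged -0.57, -0.54 and -0.49 in 4, 3 and 2 small subunit deletions, against -0.64, -0.53 and -0.66 in the other deletions. TYS1 averaged -1.10 ± 0.31 in the small subunit deletions of set 4 and -0.91 ± 0.19 in its other deletions, and was lower in the class by 0.091 to 0.14 inside the other 3 sets. Leaving out 1 class strain ended the YEF3 call for 9 of 18 strains, the deletions of RPS11A, RPS23A, RPS21A, RPS28B, RPS30A, RPS29A, RPS1A, RPS10B and RPS30B, all in set 4, with adjusted p up to 0.164. It ended the TYS1 call for the same 9 and for RPS1B, with adjusted p up to 0.161. Without the RPS19B deletion 5 members were called.

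By role, 15 of 18 synthetases had a negative difference in the small subunit deletions, with a median of -0.15, beside a median of -0.070 over all genes, and 7 had an unadjusted p below 0.05. The elongation factors had a median difference of 0.13 and the initiation factors one of 0.00072. With the set term the synthetase median was -0.055, beside -0.046 for all genes. Of 24 other cytosolic translation genes tested, none was called at the threshold, with 5 at an unadjusted p below 0.05 (limma). Of 17 mitochondrial synthetases and translation factors, TUF1, the mitochondrial elongation factor Tu, was called. TUF1 ran from -1.74 through -0.96 to 0.16 in the small subunit deletions and from -1.43 through -0.33 to 0.34 in the other deletions, 14 of 18 class strains lay below the other deletions' median, and the difference was -0.43 with a standard error of 0.10 (limma, adjusted p = 0.00550). It was called under all 12 alternatives (adjusted p from 0.000833 to 0.0225) and without any 1 of the 18 strains, and with the set term the difference was -0.26. Inside sets 1 to 4 the class differed from the other deletions by -0.11, -0.34, -0.21 and -0.32.

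TIF4631, 1 of the 2 eIF4G genes, had the lowest p of any member between deletions of the 2 ribosomal subunits. It ran from -0.62 through a median of -0.12 to 1.26 in 18 small subunit deletions and from -2.04 through -0.53 to 0.023 in 14 large subunit deletions. The ranges overlap, and 14 of 18 small subunit deletions lay above the median of the large subunit deletions. The difference of 0.66, with a standard error of 0.17, just missed the threshold (limma, adjusted p = 0.0513), so no member was called, and 0.222% of all genes were. An unadjusted p below 0.05 was found for 5 members and 8.4% of all genes, shares that are close. With the library set term the difference was 0.64 with a standard error of 0.14 and passed it (adjusted p = 0.00399), beside 1.04% of all genes, and over all settings tried the adjusted p ran from 0.00178 to 0.134. Inside sets 1 to 4 the small subunit deletions exceeded the large subunit deletions by 0.79, 0.74, 0.13 and 0.57, with 1 large subunit deletion in set 3. Leaving out 1 strain brought the call in 11 of 32 cases, the deletions of RPS9B, RPS21A, RPS30A, RPS16A, RPS19B, RPL19B, RPL13A, RPL37B, RPL29, RPL11B and RPL21B, and without the RPP2B deletion, where TIF4631 was at -2.04, the adjusted p was 0.279. Against the other deletions TIF4631 differed by 0.29 in the small subunit class (adjusted p = 0.145) and by -0.37 in the large subunit class (adjusted p = 0.297), and neither was called. PAB1 had the next lowest p, with a median of -0.12 in small subunit deletions and -0.44 in large subunit deletions, and a difference of 0.30 ± 0.11 (SE, adjusted p = 0.323).

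**Figure D5:**
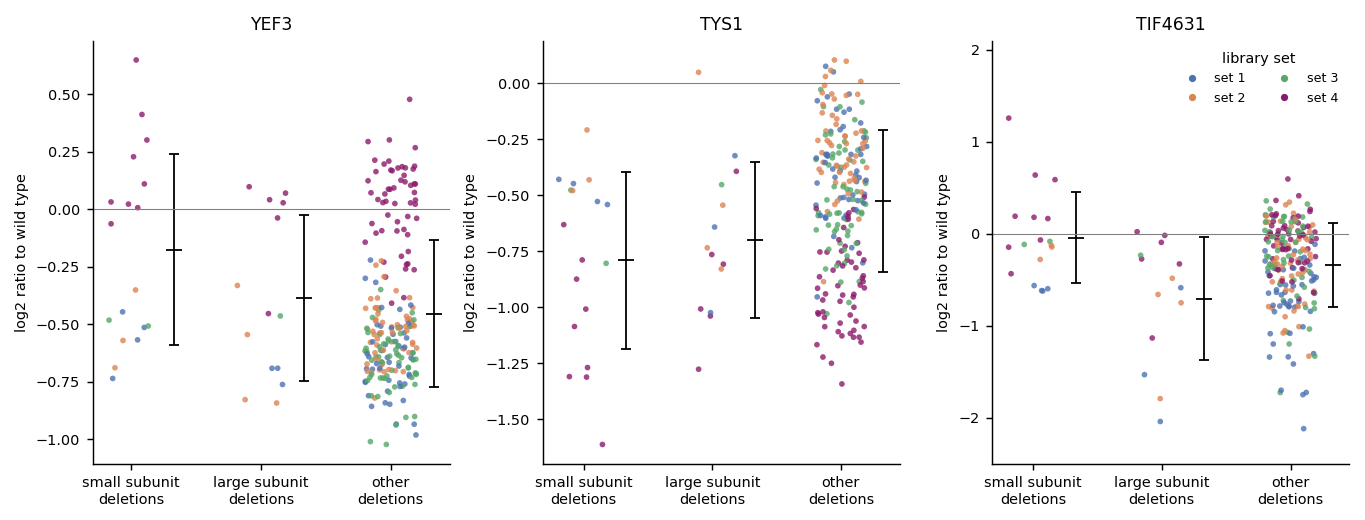
Log2 ratio to wild type of YEF3, TYS1 and TIF4631 in 18 small subunit deletions, 14 large subunit deletions and the other deletions, 1 point per strain coloured by library set (TIF4631 has no value in 1 of the other deletions), with the class mean and SD in black. In the small subunit and other deletions the strains of set 4 are shifted, up for YEF3 and down for TYS1. For TYS1 the sets overlap, with -0.91 ± 0.19 in set 4 and -0.51 ± 0.23 in set 3 of the other deletions (mean and SD). For TIF4631 the mean is -0.043 in small subunit, -0.71 in large subunit and -0.33 in other deletions.

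In the other 9 classes no member was called against the other deletions by limma. For the 14 large subunit deletions, 9 of 52 members had an unadjusted p below 0.05, a larger share than the 9.56% of all genes. At the threshold 0.222% of all genes were called. MES1, the methionyl enzyme, ran from -1.05 through -0.49 to 0.24 there and from -1.21 through -0.14 to 0.74 in other deletions, with 11 of 14 class strains below the other deletions' median and a difference of -0.27 (adjusted p = 0.221). For the 7 ribosome biogenesis deletions 1 member and 4.2% of all genes had an unadjusted p below 0.05, and 0.0889% of all genes were called, 0.0445% as higher and 0.0445% as lower. DPS1 had a median of -0.97 in these and -0.59 in other deletions, a difference of -0.25 (adjusted p = 0.999), and TEF1 medians of 0.17 and -0.0060, a difference of 0.20 (adjusted p = 0.999). For the 6 Elongator or URM1 deletions, whose gene products modify the wobble base of tRNAs, 5 of 52 members had an unadjusted p below 0.05. The share of all genes was smaller, 3.91%, and 0.0% of all genes were called, or 0.0445% with the library set term. SES1 and FRS1 were below the other deletions' median in all 6 strains, with medians of -0.45 and -0.87 there, against -0.11 and -0.67 in other deletions, and differences of -0.31 and -0.29 (adjusted p = 0.999 for each).

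Among the classes of the transcription machinery, the 6 Mediator deletions had 4 members and 8.78% of all genes at an unadjusted p below 0.05, with 0.0667% of all genes called, 0.0445% as higher and 0.0222% as lower. TEF1 was below the other deletions' median in 6 of 6 Mediator strains, from -0.90 through -0.40 to -0.077, against -1.14, -0.0060 and 0.50 in the other deletions, a difference of -0.42 with a standard error of 0.12 (limma, adjusted p = 0.206). With the set term it was -0.26 (adjusted p = 0.878), and 4 of the 6 strains were in set 1. GCN3 was higher in 5 of 6, with a median of 0.31 in Mediator and -0.32 in other deletions and a difference of 0.54 (adjusted p = 0.435), and 1 of the 5, the SRB8 deletion, has the raised chromosome XI that carries GCN3. The 5 RNA polymerase II elongation deletions had 1 member and 6.36% of all genes at an unadjusted p below 0.05, with 0.0667% of all genes called, 0.0222% as higher and 0.0445% as lower. TEF4 had medians of -0.28 in these and -0.54 in other deletions, a difference of 0.35 (adjusted p = 0.756), which the set term moved to 0.46 (adjusted p = 0.0860), and DPS1 medians of -0.30 and -0.59, a difference of 0.26 (adjusted p = 0.802). The 18 chromatin factor deletions had 3 members and 7.36% of all genes at an unadjusted p below 0.05, with 0.0% of all genes called. DED81 differed by -0.21 (adjusted p = 0.516) and PRT1, an eIF3 subunit, by -0.22 (adjusted p = 0.576), and both had their lowest value of all strains in the ASF1 deletion, at -2.60 and -1.88. Without that deletion the differences were -0.098 and -0.14.

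The 10 deletions of mitochondrial function had 1 member and 2.78% of all genes at an unadjusted p below 0.05, with 0.0222% of all genes called. CDC33, the cap-binding eIF4E, differed by 0.23 with a standard error of 0.10 and SUP35 by -0.21 with 0.12 (adjusted p = 1.00 for both in limma). The 8 recombination repair deletions had 9 of 52 members at an unadjusted p below 0.05, a larger share than the 11.9% of all genes. At the threshold 0.0222% of all genes were called. With the library set term no member of any role had an unadjusted p below 0.05 (limma). GLN4, the glutaminyl enzyme, was below the other deletions' median in 8 of 8 strains, from -1.24 through -0.69 to -0.45, against -1.32, -0.42 and 0.23 in the other deletions. Its difference was -0.31 (adjusted p = 0.284) and -0.12 with the set term, and none of these strains was in set 2 or 3. TIF3 (eIF4B) had a median of -0.31 in repair and 0.063 in other deletions, a difference of -0.30 (limma, adjusted p = 0.284). Of the 8 repair strains 5 were in set 1, where TIF3 averaged -0.36 over all strains, against 0.080 to 0.15 in the other sets. The 13 vacuolar sorting deletions had 4 members and 6.96% of all genes at an unadjusted p below 0.05, with 0.0889% of all genes called. VAS1 was below the other deletions' median in 13 of 13 strains, from -0.81 through -0.59 to -0.45, against -1.21, -0.42 and 0.30 in the other deletions. That difference was small, -0.16 with a standard error of 0.074 (limma, adjusted p = 0.641). GCD2 had a median of -1.10 in vacuolar sorting and -1.41 in other deletions, a difference of 0.28 (adjusted p = 0.697). A p above the threshold does not show that these members were equal in the classes compared.

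In single strains the members were less often displaced than other genes, which were not matched to them for abundance or depth. Relative to the median strain of its table, a strain had a median of 6 of 52 members past 0.5 in either direction (11.5%), against 23.2% of all genes, and over all strains 25.9% of all gene values passed. The members' share was the higher one in 44 of 328 strains. Relative to the median of the library set, the medians were 1 member (1.92%) and 15.9% of all genes, with 17.8% of all gene values past 0.5, and the members' share was the higher one in 2 strains. Values at least 1 from the set median made up 94 of 17049 member values (0.551%), 70 of them low and 24 high, and 2.74% of all gene values. The most were in the deletions of ASF1 (14 of 52), CSF1 (11) and RFU1 (6), where 33.4%, 14.8% and 16.6% of all genes were as far from the set, and which are among 11 strains with over 40% of all genes past 0.5 from their set.

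These 3 strains shared a pattern that some strains of library set 4 showed in reverse, a set that as a whole lay in that direction. In the deletion of ASF1, a histone chaperone, THS1 was at 1.92, GUS1 at 1.38 and EFB1 at 0.61, while EFT2 was at -1.14 and HYP2 at -1.18. In the CSF1 deletion THS1 was at 1.90 and EFB1 at 1.28, and EFT2 was at -1.27 and HYP2 at -1.47. In the RFU1 deletion THS1 was at 0.93 and EFB1 at 0.47, and HYP2 was at -1.61 and PAB1 at -1.24, the lowest of all strains for both. These deletions had the 3 lowest means of the 9 elongation factors relative to their table, -0.55, -0.46 and -0.57 for ASF1, CSF1 and RFU1, and the UBP12 deletion the next, -0.43. The 4 highest, 0.43, 0.38, 0.38 and 0.35, were in the deletions of SWI5, RAD5, RPS11A and IRS4, all in set 4, and relative to the set they were 0.24, 0.19, 0.19 and 0.16. In the SWI5 deletion EFT2 was at 1.86 and HYP2 at 1.55, and THS1 was at -1.21 and GUS1 at -1.71. In the RPS11A deletion EFT2 was at 1.78 and GUS1 at -1.77, its lowest value in any strain. Much of this was the level of set 4, where EFT2, HYP2, THS1 and GUS1 averaged 1.18, 0.83, -0.51 and -0.94. Relative to the set median, HYP2 was at 0.81 and GUS1 at -0.87 in the SWI5 deletion. In the RPS11A deletion EFT2 was at 0.65 and GUS1 at -0.93 relative to it. Of all genes with a value, 62.99%, 48.2% and 50.9% were past 0.5 from the table median in the ASF1, CSF1 and RFU1 deletions, and 43.3%, 41.1%, 41.8% and 36.7% in the SWI5, RAD5, RPS11A and IRS4 deletions. The ASF1 deletion had a value for 3423 of the genes tested, fewer than the 4285 and 4205 of the CSF1 and RFU1 deletions. In the SWI5, RAD5, RPS11A and IRS4 deletions the number was between 4379 and 4410. Whether the ASF1 library was thinner was not tested, because read counts are not given.

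The mean of the 23 initiation factors was lowest, relative to the table, in the deletions of RPP2B (-0.46), ASF1 (-0.41), INO2 (-0.29) and THP1 (-0.27), and highest in those of TIR2 (0.18), PHO5 (0.16), REV7 (0.16) and ZRC1 (0.14). In the RPP2B deletion, which lacks a stalk protein of the large subunit, 8 of 23 initiation factors were at least 0.5 below their set and none as far above it, while 15.4% of all genes were as far below and 36.1% past 0.5 either way. NIP1 was at -2.40 there, its lowest value in any strain, and GCD2 at -2.58. The synthetase mean was highest relative to the table in the deletions of GCR2 (0.38), LEM3 (0.37), CSF1 (0.34) and YNL198C (0.30) and lowest in those of RPS29A (-0.48), DRS2 (-0.45), SAM37 (-0.43) and VPS38 (-0.43), the last 4 all in set 4. Relative to the set these 4 were between -0.18 and -0.13. The open reading frame YNL198C lies next to GCR2, a regulator of glycolytic genes, on chromosome XIV.

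The termination factors gave the most extreme single value of any member. SUP35 was at -3.57 in the AIM34 deletion, -2.99 relative to its set, while SUP45 was at -0.091 there. In the INO2 deletion SUP35 was at -2.38 and SUP45 at 0.12, and GUP1 and RPS11A were the other deletions with the lowest termination mean. The highest termination means, 0.85, 0.83, 0.77 and 0.70 above the table, were in the deletions of ASC1, PHO86, BUB1 and HPM1. In the ASC1 deletion, which lacks the RACK1 protein of the small subunit and was grouped with the other deletions, SUP35 reached 0.86, its highest value, while SUI2, the alpha subunit of eIF2, was at -3.23, its lowest. In the ASC1 deletion 5 of 52 members were at least 1 from their set, against 27.4% of the 3937 genes with a value there.

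The genes whose pattern over the 328 strains was most like the mean of each role were found by Pearson correlation (327 strains for RNQ1 and DRS1). For the initiation mean they were RPL6A, RPS0B, RPS24A and RPL17B, genes of ribosomal proteins, and SSB1, a chaperone bound to ribosomes, with correlations of 0.53 to 0.56 that were 0.39 to 0.44 within sets. For the elongation mean they were RNQ1, which encodes a prion protein, ILV3, an enzyme of branched amino acid synthesis, RPP1B and RPS4A, ribosomal protein genes, and HSC82, an Hsp90 chaperone, with 0.75 to 0.78 and 0.59 to 0.66 within sets. For the termination mean they were RPN8, RPL40B, RPL34A, BMH2 and DEF1, with 0.67 to 0.69 and 0.23 to 0.42 within sets. For the synthetase mean they were RPL34A, TKL1, RPL35A, ZRC1 and RPS8A, with 0.79 to 0.85, which within sets lay between 0.073 for RPL35A and 0.48 for TKL1, a transketolase. Ranked within sets, all but RPS0B, RPN8 and TKL1 were other genes: MAK5, RPS0B, ENP2, DRS1 and NOP7 for initiation (0.42 to 0.45), RPS15, PDC1, SSB2, SSA2 and RPP2A for elongation (0.73 to 0.80), RPN8, SOF1, VMA1, YRB1 and UTP9 for termination (0.38 to 0.42), and SSZ1, TKL1, THR4, STM1 and RPS7B for the synthetases (0.41 to 0.49). The strains share a wild type and the library sets, and no test was made of these correlations.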

How the data were processed

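PolyA RNA of 328 deletion strains was sequenced on an Illumina HiSeq, 1 library per strain, per the labels' protocols. Bowtie is named in the submitters' processing notes, without a version, and the genome build is not known from the sources at hand. The authors deposited log2 ratios of each strain to wild type in 2 tables of 255 and 73 strains; the base was taken as 2 from the size of whole-chromosome shifts. The second table has no gene names, and its rows were matched to the first by position, where the gene means of the tables correlated at 0.979, against at most 0.0463 at shifts of up to 5 rows. Of the first table's rows 51 have no name and stayed out. Read depth is unknown, so no counting interval can be given.

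Genes with a value in 80% of strains were fitted with limma 3.58.1 (R 4.3.3) over all strains in 11 groups, with a term for the table and Benjamini-Hochberg adjustment over 4499 genes. The fit was tried on values of the other deletions, with random strains taken as a class and known shifts added to some genes. Library sets came from a Gaussian mixture on 4 principal components (scikit-learn 1.9.0). Alternatives changed the centring, set and table terms, reference, strains and genes. The members and lists were chosen with earlier results of these data known. Named members are those called, the 2 with the lowest p in each class without a call, the 4 with the highest and the 4 with the lowest SD, the duplicated pairs and the termination factors; named strains are the 4 highest and 4 lowest per role mean, and like genes the 5 highest correlations. Other named members, and strains named for raised chromosomes or single values, were chosen after their values were seen. Promoter windows and coding sequences are RefSeq R64.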

Additional observations from a re-analysis of the deposited data

Results flagged for a closer look

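In the deletion of IMG2, a mitochondrial ribosomal protein gene, the mean of the 23 initiation factors was -0.58, against -0.37 to -0.28 in the other 9 deletions of mitochondrial function, a gap past Dixon's 95% limit, and IMG2 was the single strain of its class in library set 1. GCN3 was at -0.94 in the SIN4 deletion and between 0.23 and 0.60 in the other 5 Mediator deletions, and SIN4 was the single Mediator strain in library set 4. The initiation mean was -0.51 in the LRP1 deletion and between -0.38 and -0.29 in the other 6 ribosome biogenesis deletions. The LRP1 deletion had chromosome IX raised, which carries the synthetase gene THS1 but no initiation factor. Of 36 groups of values looked at, 3 held such a sample, and chance gives about 1 in 20. TIF4631 differed between small and large subunit deletions by 0.64 with the library set term (limma, adjusted p = 0.00399), a difference between classes of the same contrast with the other deletions. Without that term the adjusted p was 0.0513.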

How the results depend on the processing

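For the small subunit deletions the count of 2 members called became 0 with each strain centred on its median, with the library set term, with a term for 5 sets, with all strains outside the class as the reference and with the ASC1 deletion in the class, 1 with the set term and centring together, 1 in the first table alone and 3 with only genes that have a value in every strain, and ran from 0 to 5 without any 1 strain. For small against large subunit deletions the count of 0 became 1 without the table term, with the set term, with the set term and centring and with a term for 5 sets, and ran from 0 to 1 without any 1 strain. In the other 9 classes it was 0 under all 11 alternatives, and without any 1 strain in the 7 classes where this was run. Leaving out single strains was not run for the recombination repair and vacuolar sorting deletions. The median number of members past 0.5 in a strain, 6, became 19 with the ratio as deposited, 0 at a threshold of 1 and 1 relative to the library set. In all, 110 alternative counts of members called were within 1.5 times of the reported one and 11 were not, and none of 239 alternatives or 232 values without 1 strain reversed the direction of a named member. The terms for 5 sets, the exclusion of strains that stand apart and the values relative to the library set were chosen after seeing the data. No paired analysis was possible because the labels carry no replicate numbers that groups share. Depth, unknown here, and 1 library per strain limit every single-strain value, and the wild-type measurement is shared by all.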

Other observations

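In 24 cases a member lay within 3 genes of the gene deleted in a strain, 9 of them adjacent. None of these members was past 0.5 from the median of its library set, and they ran from -0.37 for EFT2 in the RVS167 deletion to 0.40 for TYS1 in the UBR1 deletion.

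The means of the roles were related to each other and to other lists over the 328 strains as follows. The elongation and synthetase means correlated at -0.50 over the strains and at 0.065 within library sets. The termination and synthetase means correlated at 0.67 and 0.35. The elongation mean and the mean of 17 mitochondrial synthetases and translation factors correlated at -0.51 and -0.40, and the initiation mean and the ribosomal protein mean at 0.47 and 0.27. TMA19, a ribosome-associated protein among the other cytosolic translation genes, differed by 0.24 between small subunit and other deletions (limma, adjusted p = 0.0662) and by 0.18 with the set term, where it passed the threshold (adjusted p = 0.0456). Of 6 marker genes of a cells 5 were tested, with strain means of -2.45 to 0.83, and none of 4 markers of alpha cells passed the filter on missing values.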
